A study of Mus musculus with 10 samples.

Results

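Histone lysine methylation is written by methyltransferases and removed by demethylases, and 43 genes of this system were followed in mouse quadriceps muscle. The 43 were a fixed list of symbols taken from the 24063 gene symbols of the count tables: 25 methyltransferases of the SET domain and DOT1L families ("writers"), 12 demethylases ("erasers") and 6 non-catalytic core subunits of the writer complexes. Where a symbol had several transcript ids, the id with the most reads over the 10 libraries stood for it. The 1C-MIM group (5 libraries) came from wild-type C57BL mice that received a supplement of that name in their drinking water for 1 to 3 months, and the Control group (5 libraries) from wild-type C57BL mice given unsupplemented water. All animals were 17 to 20 months old and had a tibialis anterior muscle injured before collection, while the sequenced RNA was from quadriceps without injury. The sources used here do not give what 1C-MIM is composed of, the animals' sex or the time from injury to collection. Names in the deposited data number each library as its own animal, so n counts animals as far as those names go.

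Writers of histone methylation move a methyl group from S-adenosylmethionine, the methyl donor made by one-carbon metabolism, to lysines of histones. Methylation of H3K4, H3K36 and H3K79 is found at active enhancers, promoters and transcribed gene bodies, and methylation of H3K9 and H3K27 at silent chromatin. LSD1 (Kdm1a) removes methyl groups with a flavin cofactor, and the other erasers of the list belong to the Jumonji family, which needs iron, oxygen and alpha-ketoglutarate. Wdr5, Ash2l, Rbbp5 and Dpy30 form the core that H3K4 methyltransferases of the KMT2 and SETD1 families bind. Suz12 and Eed hold Ezh1 or Ezh2 in Polycomb repressive complex 2, which methylates H3K27. In skeletal muscle Smyd1 is a striated muscle protein needed for sarcomere assembly, and Ezh1 is known as the form of the pair that persists in fibres after cells stop dividing.

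The libraries held 29108461 to 31771297 counts in 1C-MIM and 28521249 to 30595123 counts in Control, with 1 id per symbol. All 43 genes passed the filter on low counts, among 13880 genes tested. Muscle fibre markers were abundant throughout, with 7 markers summing to 207600 to 236400 CPM in 1C-MIM and 189300 to 211200 CPM in Control. CPM are counts per 1000000 counts of the library scaled by TMM, and levels are compared between genes as RPKM, which is CPM per 1000 bases of transcript. Calls come from edgeR's quasi-likelihood test with Benjamini-Hochberg adjustment over all 13880 genes at an adjusted p under 0.05. In whole muscle, fewer cells of a type and less RNA per cell cannot be told apart.

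More of these genes were higher than lower in supplemented muscle. Of the 43 members, 12 were called higher (27.9%) and 1 lower (2.33%), against 9.78% of all genes higher and 11.8% lower. Fold changes of the 12 ran between 1.16 and 1.55. The 12 were the writers Kmt2a, Kmt2b, Kmt2c, Kmt2d, Setd2, Setd7, Smyd2 and Dot1l and the erasers Kdm3b, Kdm4b, Kdm4c and Phf8, and the gene called lower was the core subunit Dpy30. The median log2 fold change was 0.16 over the members and 0.00 over all genes tested, and 35 of 43 members were above 0. With library totals as the only scaling, the balance over all genes was 606 higher and 2895 lower in place of 1357 and 1643, and among the members Smyd2 alone was called higher while Dpy30 and Smyd5 were called lower.

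Relative to Control, long transcripts tended to be higher than short ones in 1C-MIM across the transcriptome, and most of the genes called here are long. The trend differed between libraries, and that of 1C-MIM 1 lay within the Control range. The 12 higher genes had a median transcript of 7234 bases, and 11 of them were of 4000 bases or more. When each library's trend with transcript length was removed, 3 of 43 members were called higher (Smyd2, Kmt2c and Kdm3b) and 1 lower (Nsd1). Of all genes, 6.97% were then higher, close to the share of the members, and 9.33% were lower. Values with that trend removed are given beside the results.

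**Figure D1:**
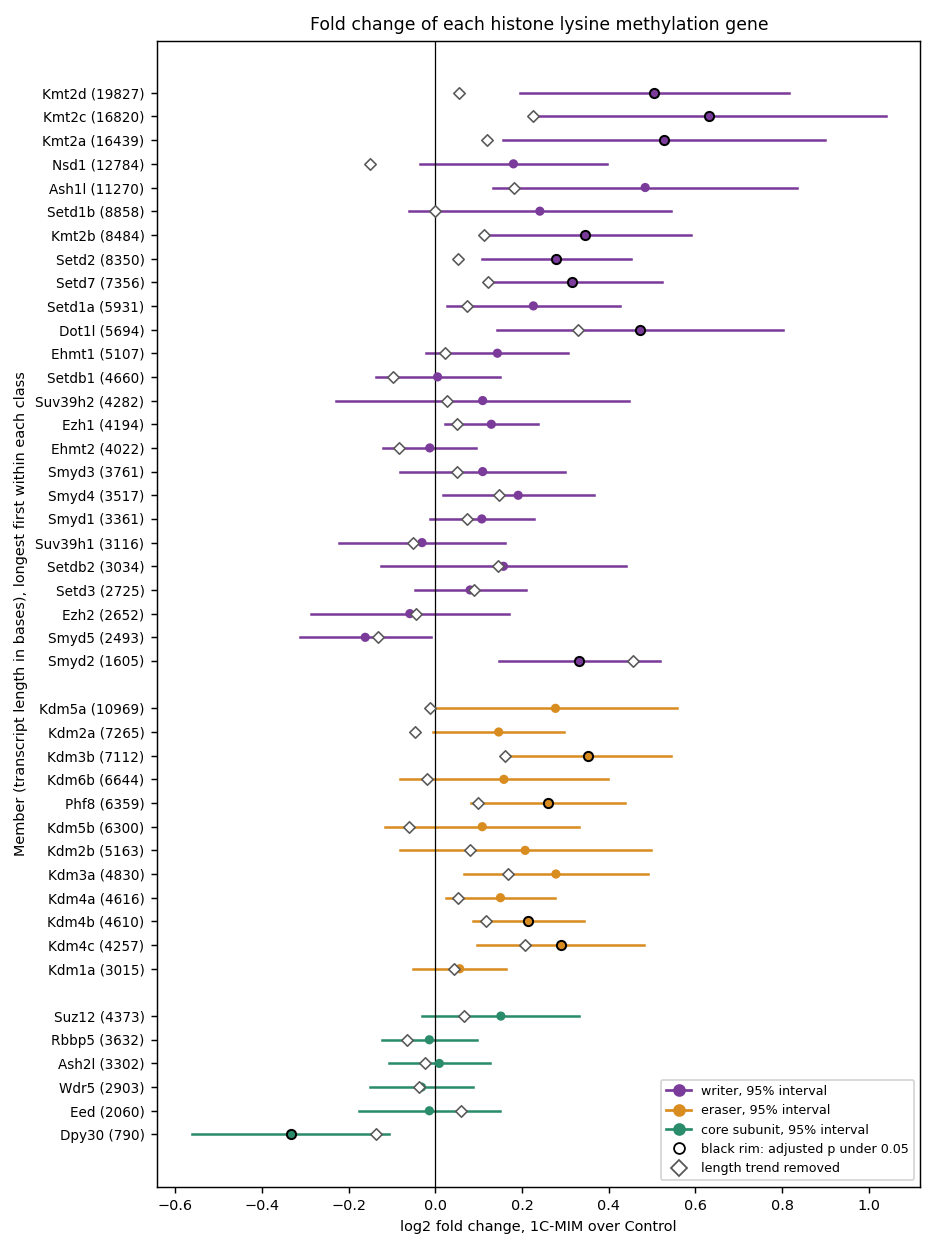
Log2 fold change of 1C-MIM over Control (x axis) for each of the 43 genes (y axis, transcript length in bases in parentheses), with filled circles and 95% intervals from edgeR, and open diamonds for the fit with each library's length trend removed. The diamonds of the longest writers lie far to the left of their circles (Kmt2d 0.51 and 0.05), while that of the 1605-base Smyd2 lies to the right (0.33 and 0.46).

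Levels per length differed widely within the list. Smyd1 was highest with a mean of 195.5 RPKM over the 10 libraries, followed by Smyd2 with 131 RPKM, Setd7 with 55.3 RPKM and Setd3 with 51.7 RPKM. Setd3 is a SET domain protein whose known substrate is a histidine of actin. The next were Dpy30 (21.7 RPKM), Ehmt2 (13.2 RPKM), Ezh1 (11.52 RPKM), Wdr5 (10.5 RPKM) and Kdm1a (10.2 RPKM). The last 2 of these lay within the spread of each other, and so did Setd7 and Setd3. Setd7 ranged from 54.6 to 65.8 RPKM in 1C-MIM and from 38.3 to 57.8 RPKM in Control, and Setd3 from 49.8 to 58.7 RPKM in 1C-MIM and from 47.6 to 54.2 RPKM in Control. The other 34 members lay between 8.80 RPKM for Ash2l and 0.49 RPKM for Suv39h2, whose reads per library numbered only 45 to 81. The order thus began with Smyd1, Smyd2, Setd7 and Setd3, several of which act mostly on proteins other than histones. Other SMYD and SETD genes lay far lower, between 5.02 RPKM (Setd1a) and 1.52 RPKM (Setd1b). The classic chromatin writers of the KMT2 family stood in that range, from 3.97 RPKM (Kmt2b) to 1.96 RPKM (Kmt2a).

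Smyd2 departed most from what its length would give. It encodes a methyltransferase that is mostly cytoplasmic and is known to methylate p53 and the chaperone Hsp90. Smyd2 had 242, 208, 264, 222 and 239 CPM in 1C-MIM 1 to 5, against 149, 197, 186, 198 and 204 CPM in Control 1 to 5. Every 1C-MIM library was above every Control library, with Control 1 lowest and Control 5 nearest to the 1C-MIM range. The means were 235 ± 21.2 and 187 ± 21.9 CPM (SD, n = 5 each), with a log2 fold change of 0.33 and an SE of 0.09 (edgeR adjusted p = 0.0177). Removal of the length trend gave 0.46 (edgeR adjusted p = 0.00159), since transcripts of its length otherwise tended to be lower in 1C-MIM. In the reference annotation GENCODE M21, 814 bases of its exons overlap the opposite-strand gene Gm37422, whose reads were not analysed here.

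Its muscle-specific relative Smyd1 was not called. Smyd1 had 686, 659, 716, 686 and 660 CPM in 1C-MIM, against 636, 676, 601, 666 and 584 CPM in Control. The ranges overlapped in Control 2 and Control 4, and the log2 fold change was 0.11 (SE 0.06; edgeR adjusted p = 0.177). The read ratio of Smyd2 to Smyd1, a pair chosen after the values were seen and not tested, was 0.316 to 0.369 in the 1C-MIM libraries and 0.235 to 0.349 in the Control libraries. The other SMYD genes were not called, with log2 fold changes of 0.19 for Smyd4 (edgeR adjusted p = 0.103), 0.11 for Smyd3 (0.386) and -0.16 for Smyd5 (0.112). Setd3 had a log2 fold change of 0.08 (edgeR adjusted p = 0.343). Without the length trend Smyd1 was at 0.07, Smyd4 at 0.15, Smyd3 at 0.05, Smyd5 at -0.13 and Setd3 at 0.09, none of them called.

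The promoters of Smyd2 and Smyd1, neighbours in level, and of Kmt2c, the gene with the greatest fold change, show how unlike the start regions of these genes are. They are RefSeq windows on build GRCm38.p6 from 250 bases before to 50 bases after the annotated start, written 5′ to 3′ on the gene's strand, with capitals marking motifs found on either strand, overlapping ones included. The motif searched for as the GC box was GGGCGG. That of the TATA box was TATAAA, and the third was the CCAAT box, named by its letters.
Smyd2, chr1:189922242-189922541, minus strand: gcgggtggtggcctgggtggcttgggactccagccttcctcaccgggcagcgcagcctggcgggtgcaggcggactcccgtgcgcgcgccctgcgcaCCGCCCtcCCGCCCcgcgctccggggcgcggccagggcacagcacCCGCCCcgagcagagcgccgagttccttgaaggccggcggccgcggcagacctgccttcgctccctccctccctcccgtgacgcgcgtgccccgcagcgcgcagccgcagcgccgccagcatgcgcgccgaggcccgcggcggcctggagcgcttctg
Smyd1, chr6:71262232-71262531, minus strand: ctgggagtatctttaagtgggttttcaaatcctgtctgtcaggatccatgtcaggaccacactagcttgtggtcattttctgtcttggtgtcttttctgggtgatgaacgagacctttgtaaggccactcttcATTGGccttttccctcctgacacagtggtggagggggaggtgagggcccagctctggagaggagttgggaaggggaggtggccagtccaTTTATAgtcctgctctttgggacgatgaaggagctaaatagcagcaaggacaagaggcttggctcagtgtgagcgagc
Kmt2c, chr5:25498734-25499033, minus strand: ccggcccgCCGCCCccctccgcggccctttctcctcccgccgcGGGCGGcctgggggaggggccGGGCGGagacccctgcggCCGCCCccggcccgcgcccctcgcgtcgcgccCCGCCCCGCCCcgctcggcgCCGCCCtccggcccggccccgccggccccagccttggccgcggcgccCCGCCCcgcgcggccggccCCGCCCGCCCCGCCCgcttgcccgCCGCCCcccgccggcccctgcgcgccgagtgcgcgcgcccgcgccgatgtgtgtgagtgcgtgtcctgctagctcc
The Smyd2 window was 79% G and C, with 43 CpG and 3 GC boxes, and the Kmt2c window 88.0% with 56 CpG and 12 GC boxes. The Smyd1 window was 52.0% G and C, with 3 CpG, 1 CCAAT box and the only TATA box found among the members. Windows were at hand for 32 of the 43 members (44 windows, since some genes have several starts). A GC box was in 63.6% of these and in 35.7% of all 32851 windows, a CCAAT box in 40.9% and 37.4%, a TATA box in 2.3% and 13.6%, and an E-box (CANNTG) in 56.8% and 72.3%. The MEF2 box was in 0 of the 44 windows and 0.557% of all, and the CArG box in 0 and 1.63%. The member windows were richer in G and C than windows in general, with medians of 65.5% and 52.7%. Such matches are letters in a window and say nothing of binding.

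H3K4 methyltransferases gave 5 of the 8 writers called higher. Of the 10 H3K4 genes, writers and erasers together, those 5 were higher (50%), against 9.78% of all genes tested. Of the 5, Kmt2a, Kmt2b, Kmt2c and Kmt2d exceed 8000 bases, a range where 33.4% of all genes were called higher. With the length trend removed 1 of the 10 was higher, against 6.97% of all genes. The KMT2 genes encode the MLL family, of which Kmt2a and Kmt2b act at promoters and Kmt2c and Kmt2d mainly at enhancers, and all 4 were called. Kmt2c had 41.7, 69.0, 60.4, 59.7 and 39.3 CPM in 1C-MIM 1 to 5, against 44.0, 40.8, 34.1, 31.4 and 24.2 CPM in Control 1 to 5. 1C-MIM 2, 3 and 4 were above every Control library, 1C-MIM 1 and 5 lay among the Controls, and Control 5 was lowest. The means were 54.0 ± 12.9 and 34.9 ± 7.85 CPM (SD, n = 5 each), with a log2 fold change of 0.63 and an SE of 0.19 (edgeR adjusted p = 0.033). Removing the length trend left 0.22 (edgeR adjusted p = 0.0483), the one KMT2 call that remained. Kmt2a, Kmt2c and Kmt2d lie at length percentile 99.9, where few genes set that trend.

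Kmt2d had 55.6, 83.8, 79.1, 72.2 and 54.1 CPM in 1C-MIM, against 53.5, 57.5, 51.9, 41.5 and 38.6 CPM in Control, with a log2 fold change of 0.51 and an SE of 0.14 (edgeR adjusted p = 0.0269). Kmt2a had 27.1, 48.4, 45.3, 39.8 and 29.3 CPM in 1C-MIM, against 30.6, 30.1, 27.2, 24.3 and 19.5 CPM in Control, with a log2 fold change of 0.53 and an SE of 0.17 (edgeR adjusted p = 0.0463). Both repeated the pattern of Kmt2c, with 1C-MIM 2, 3 and 4 high, 1C-MIM 1 and 5 within the Control range and Control 5 low. Kmt2b had 31.6, 40.4, 42.0, 37.6 and 37.1 CPM in 1C-MIM, against 24.2, 33.8, 35.7, 30.2 and 24.4 CPM in Control, with a log2 fold change of 0.35 and an SE of 0.11 (edgeR adjusted p = 0.0447). Here 1C-MIM 1 alone fell within the Control range, and Control 1 was as low as Control 5. With the length trend removed these 3 genes were at 0.05, 0.12 and 0.11 (edgeR adjusted p = 0.536 for Kmt2d, 0.257 for Kmt2a and 0.479 for Kmt2b).

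Setd7, which adds a single methyl group to H3K4 and to many other proteins, was the most abundant of the H3K4 writers. It had 423.9, 463.9, 481.7, 484.0 and 401.7 CPM in 1C-MIM, against 424.9, 382.8, 345.5, 376.4 and 281.4 CPM in Control. 1C-MIM 1 and 5 lay at or under Control 1, and the log2 fold change was 0.32 (SE 0.10; edgeR adjusted p = 0.0319), or 0.12 with the length trend removed (adjusted p = 0.162). Setd1a and Setd1b, which make most of the H3K4 trimethylation of a cell, were not called, at 0.23 and 0.24 (edgeR adjusted p = 0.0947 for Setd1a and 0.225 for Setd1b), and at 0.07 and 0.00 with the length trend removed. Of the H3K4 erasers, Kdm5a was at 0.28, Kdm5b at 0.11 and Kdm1a at 0.06, and 0 of the 3 were called by edgeR (0 also at an unadjusted p under 0.05, and 0 by DESeq2). Without the length trend Kdm5a was at -0.01, Kdm5b at -0.06 and Kdm1a at 0.04.

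Of the H3K36 writers, Setd2 was called. It is the enzyme that trimethylates H3K36 behind elongating RNA polymerase. Setd2 had 37.9, 44.7, 40.6, 41.7 and 37.5 CPM in 1C-MIM, against 38.8, 34.8, 32.7, 32.1 and 28.4 CPM in Control, with a log2 fold change of 0.28 and an SE of 0.08 (edgeR adjusted p = 0.0257). Control 1 lay among the 1C-MIM libraries and the other Controls under them all, and with the length trend removed the value was 0.05 (adjusted p = 0.45). Ash1l, which dimethylates H3K36, had 51.8, 79.1, 67.2, 69.7 and 50.1 CPM in 1C-MIM, against 55.3, 50.9, 44.8, 45.8 and 30.5 CPM in Control. Its log2 fold change of 0.48 (SE 0.16) stood just outside the threshold (edgeR adjusted p = 0.05002), with 1C-MIM 1 and 5 within the Control range. DESeq2 called it higher (adjusted p = 0.012). Its log2 fold change without the length trend was 0.18 (edgeR adjusted p = 0.12). Its exons share 352 bases with the opposite-strand gene Dap3 in GENCODE M21, and without a stated strand their reads there cannot be told apart.

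Nsd1, the third H3K36 writer, took opposite signs in the fits. At 12784 bases it ranged from 59.2 to 82.6 CPM in 1C-MIM and from 53.4 to 73.2 CPM in Control, with a log2 fold change of 0.18 (edgeR adjusted p = 0.204) as measured and -0.15 (adjusted p = 0.0354) with the length trend removed. It was thus called lower relative to the fitted trend at its length. Few genes set that trend there, since Nsd1 lies at length percentile 99.5. The H3K36 erasers Kdm2a and Kdm2b were not called, at 0.15 and 0.21 (edgeR adjusted p = 0.145 for Kdm2a and 0.277 for Kdm2b), and at -0.05 and 0.08 with the length trend removed.

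Dot1l, the methyltransferase of H3K79, had 30.5, 41.7, 37.7, 36.3 and 29.8 CPM in 1C-MIM, against 20.6, 31.1, 31.5, 25.2 and 18.3 CPM in Control. 1C-MIM 1 and 5 lay under Control 2 and 3, and the other 3 supplemented libraries above every Control. The log2 fold change was 0.47 (SE 0.15; edgeR adjusted p = 0.0436). Removing the length trend left 0.33, the second largest value of a writer in that fit after Smyd2, but past the threshold no longer (edgeR adjusted p = 0.0992).

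Writers of the silencing marks were not called by edgeR, and DESeq2 called Ezh1 higher. Ezh1 had 50.9, 51.6, 51.2, 48.6 and 50.03 CPM in 1C-MIM, against 48.5, 45.1, 48.0, 44.9 and 44.3 CPM in Control. The groups did not overlap, but the difference was small, at a log2 fold change of 0.13 and an SE of 0.05 (edgeR adjusted p = 0.0797), or 0.05 with the length trend removed (adjusted p = 0.479). Ezh2, the form of dividing cells, had 4.53, 3.74, 3.55, 4.47 and 4.07 CPM in 1C-MIM, against 4.04, 3.95, 4.05, 4.33 and 4.85 CPM in Control. Its log2 fold change was -0.06 with a 95% interval of -0.29 to 0.17 (edgeR adjusted p = 0.716). A list of genes of proliferating cells, which does not hold Ezh2, had 7 of its 8 genes tested. All 7 were called lower in 1C-MIM, against 11.8% of all genes. With the length trend removed 5 of the 7 were, against 9.33%, and Pcna and Rrm2 lost their calls. The list summed to 16.2 to 16.9 CPM in 1C-MIM and 21.5 to 27.04 CPM in Control, and its part in the Ezh2 value was not tested. Kdm6b, the H3K27 eraser of the list, was at 0.16 (edgeR adjusted p = 0.319). Without the length trend Kdm6b was at -0.02 and Ezh2 at -0.04.

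Among H3K9 writers, Suv39h1 and Suv39h2 make the trimethyl mark of constitutive heterochromatin, and Ehmt2 (G9a) and Ehmt1 (GLP) work as a pair on mono- and dimethylation. Suv39h1 had 7.36, 6.08, 8.10, 6.90 and 7.71 CPM in 1C-MIM, against 7.53, 7.63, 7.66, 7.12 and 7.002 CPM in Control. Suv39h2 had 2.18, 2.23, 2.39, 2.17 and 1.92 CPM in 1C-MIM, against 2.16, 2.64, 1.64, 2.15 and 1.51 CPM in Control. The groups overlapped for both, with log2 fold changes of -0.03 (95% interval -0.22 to 0.16) and 0.11 (95% interval -0.23 to 0.45). Ehmt1 had 20.6, 23.2, 25.1, 23.6 and 22.4 CPM in 1C-MIM, against 21.4, 23.1, 22.02, 19.0 and 18.6 CPM in Control. Ehmt2 had 52.2, 53.0, 51.0, 50.9 and 56.4 CPM in 1C-MIM, against 52.5, 51.5, 55.2, 53.6 and 53.2 CPM in Control. These groups overlapped too, at 0.14 (95% interval -0.02 to 0.31) and -0.01 (95% interval -0.12 to 0.09). Setdb1 and Setdb2 were at 0.01 and 0.16 (edgeR adjusted p = 0.964 for Setdb1 and 0.4 for Setdb2). The 6 H3K9 writers were not called without the length trend either, at -0.05 for Suv39h1, 0.03 for Suv39h2, 0.02 for Ehmt1, -0.09 for Ehmt2, -0.10 for Setdb1 and 0.14 for Setdb2.

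The balance within these 3 paralog pairs was tested as a log2 read ratio per library, which does not depend on the scaling. The length trend was not removed from these ratios. The longer genes were Ezh1 (4194 bases, Ezh2 2652), Ehmt1 (5107, Ehmt2 4022) and Suv39h2 (4282, Suv39h1 3116). Each difference was toward the longer gene in 1C-MIM, and the part of length in it was not tested. Ezh1 over Ezh2 was 3.63 ± 0.18 in 1C-MIM and 3.44 ± 0.16 in Control, a difference of 0.19 (exact permutation test, two-sided p = 0.135; 0.238 adjusted over the 3 pairs; SD, n = 5 each). Ehmt1 over Ehmt2 was -1.20 ± 0.14 in 1C-MIM and -1.36 ± 0.15 in Control, a difference of 0.16 (exact permutation test, two-sided p = 0.159, adjusted 0.238; n = 5 each). Suv39h1 over Suv39h2 was 1.72 ± 0.20 in 1C-MIM and 1.89 ± 0.30 in Control, a difference of -0.17 (exact permutation test, two-sided p = 0.31, adjusted 0.31; n = 5 each). None of the 3 passed, where 5 against 5 libraries could reach 0.0079.

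**Figure D2:**
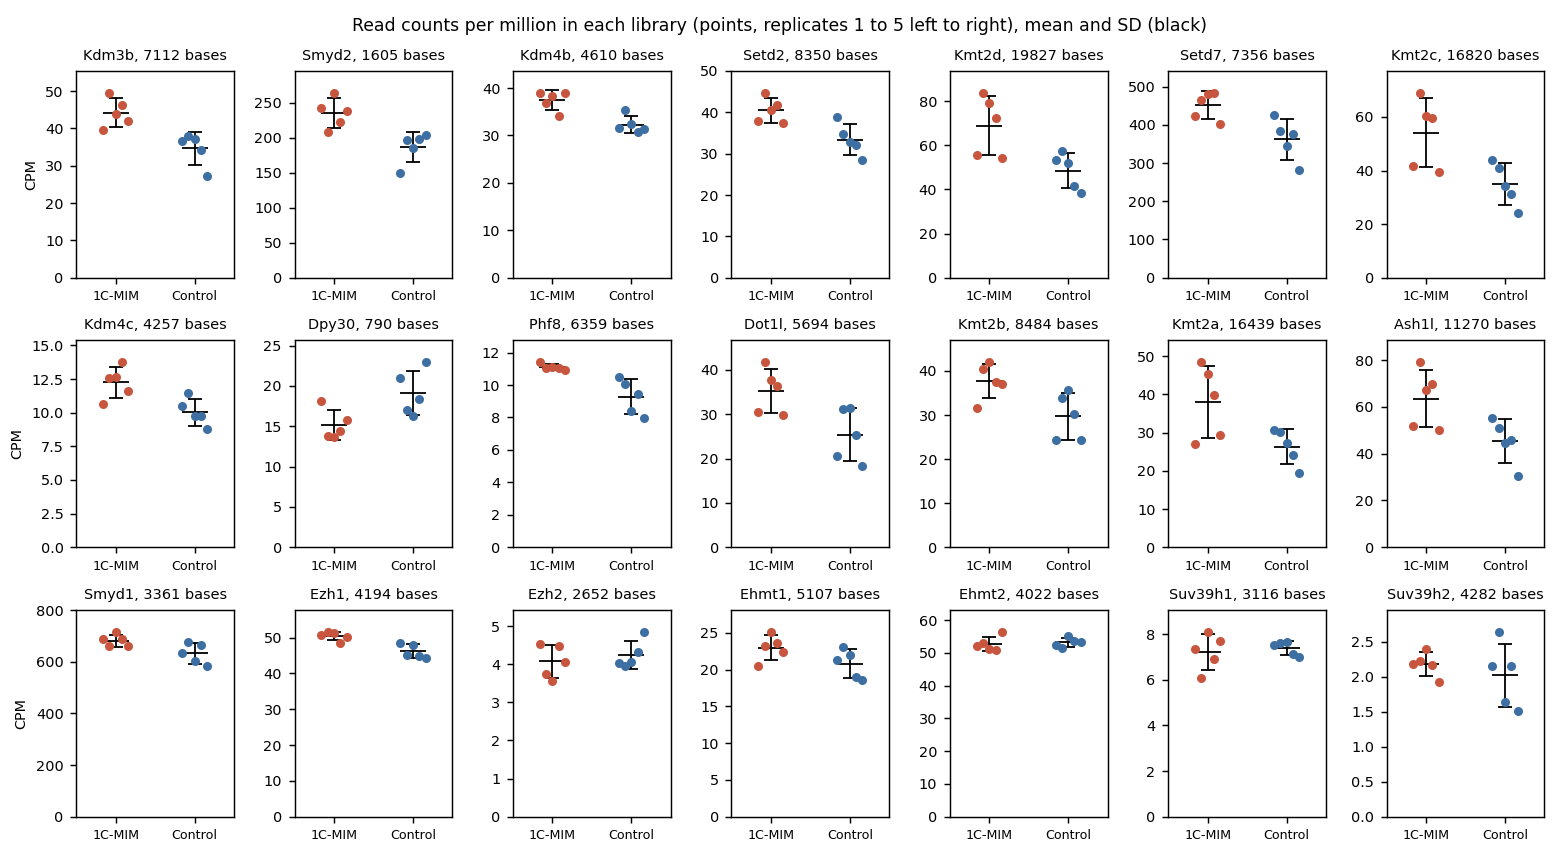
CPM (y axes, from 0) in each library for the 14 genes with the smallest p and for Smyd1 and the 3 paralog pairs, with 1C-MIM left of Control, replicates 1 to 5 from left to right and black bars for mean and SD. In Smyd2, Kdm3b, Phf8 and Ezh1 the groups do not overlap, and in Kmt2a, Kmt2c, Kmt2d and Ash1l the first and last 1C-MIM libraries reach down into the Control range.

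Of the 12 erasers, 4 were called higher (33.3%), against 9.78% of all genes tested. All 12 had a log2 fold change above 0 as measured, but 8 of 12 did with the length trend removed, where Kdm2a, Kdm5a, Kdm5b and Kdm6b were below 0, and Kdm1a was at -0.02 with library totals as scaling. Kdm3b, which removes mono- and dimethylation of H3K9, had 39.5, 49.6, 43.9, 46.3 and 42.0 CPM in 1C-MIM, against 36.6, 38.02, 37.2, 34.3 and 27.3 CPM in Control. No Control library reached the lowest 1C-MIM library, and Control 5 stood apart below. The means were 44.3 ± 3.87 and 34.7 ± 4.37 CPM (SD, n = 5 each), with a log2 fold change of 0.35 and an SE of 0.09 (edgeR adjusted p = 0.016, the smallest of the members). The value without the length trend was 0.16 (edgeR adjusted p = 0.0428). GENCODE M21 places 3468 bases of an opposite-strand gene, Gm26538, on its exons, which was not analysed here.

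Phf8, an X-linked eraser of H3K9 dimethylation, had 11.4, 11.1, 11.1, 11.1 and 10.9 CPM in 1C-MIM, against 10.5, 10.04, 8.43, 9.46 and 7.98 CPM in Control. Supplemented libraries were nearly identical and all above the more scattered Controls, with a log2 fold change of 0.26 and an SE of 0.08 (edgeR adjusted p = 0.0394), or 0.10 with the length trend removed (adjusted p = 0.393). Kdm4b and Kdm4c remove tri- and dimethylation of H3K9 and H3K36. Kdm4b had 39.0, 36.8, 38.3, 34.1 and 39.0 CPM in 1C-MIM, against 31.6, 35.3, 32.4, 30.7 and 31.4 CPM in Control, with a log2 fold change of 0.21 and an SE of 0.06 (edgeR adjusted p = 0.0225). Kdm4c had 10.7, 12.6, 12.7, 13.7 and 11.6 CPM in 1C-MIM, against 10.5, 11.4, 9.73, 9.74 and 8.79 CPM in Control, with a log2 fold change of 0.29 and an SE of 0.09 (edgeR adjusted p = 0.0346). Each pair of groups met at 1 library, 1C-MIM 4 for Kdm4b and 1C-MIM 1 for Kdm4c, which lay under Control 2. With the length trend removed these 2 were at 0.12 and 0.21 (edgeR adjusted p = 0.214 for Kdm4b and 0.0674 for Kdm4c). Kdm3a and Kdm4a missed the threshold, at 0.28 and 0.15 (edgeR adjusted p = 0.058 for Kdm3a and 0.0792 for Kdm4a), and at 0.17 and 0.05 with the length trend removed. DESeq2 called Kdm3a higher (adjusted p = 0.0354) and did not call Kdm4a (adjusted p = 0.0567).

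No core subunit was called higher, and 1 of 6 was called lower, against 9.78% and 11.8% of all genes tested. Dpy30, the smallest subunit of the H3K4 core, had 18.2, 13.8, 13.7, 14.4 and 15.7 CPM in 1C-MIM, against 21.0, 17.0, 16.3, 18.3 and 22.9 CPM in Control. 1C-MIM 1 lay among the Controls and the other 4 below them all, with a log2 fold change of -0.33 and an SE of 0.11 (edgeR adjusted p = 0.0388). At 790 bases Dpy30 is the shortest member, and with the length trend removed it was at -0.14 (edgeR adjusted p = 0.199). Wdr5, Ash2l, Rbbp5 and Eed had log2 fold changes of -0.03 to 0.01, and their 95% intervals together ran from -0.18 to 0.15. Suz12 was at 0.15 (edgeR adjusted p = 0.206). Without the length trend these 5 were at -0.07 to 0.07. Of the 6 subunits 0 were called higher by edgeR, 0 at an unadjusted p under 0.05 and 0 by DESeq2.

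Set against each other, writers and erasers had close shares of genes called and close medians. Among all genes tested, 9.78% were called higher and 11.8% lower. Of 25 writers, 8 were called higher (32%), 0 lower and 17 not called, with a median log2 fold change of 0.18. Smyd5 was the 1 writer lower at an unadjusted p under 0.05, and DESeq2 called 0 writers lower. Of 12 erasers, 4 were called higher (33.3%), 0 lower and 8 not called, with a median of 0.21; 0 were lower at an unadjusted p under 0.05 and 0 by DESeq2. The core subunits had a median of -0.01. With the length trend removed, 2 of 25 writers were higher and 1 lower (median 0.05). In that fit 1 of 12 erasers was higher (median 0.07) and 0 core subunits were called (median -0.03). Among all genes, 6.97% were then higher and 9.33% lower. Non-overlapping groups with 1C-MIM above were found for 4 members (Smyd2, Ezh1, Kdm3b and Phf8), against 6.6% of all genes, and with 1C-MIM below for 0 members, against 7.98%.

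The same comparison can be read library by library, as the mean deviation of a class from each gene's mean log2 CPM over the 10 libraries. Writers stood at 0.01, 0.20, 0.17, 0.14 and 0.01 in 1C-MIM 1 to 5, against -0.09, 0.01, -0.07, -0.10 and -0.28 in Control 1 to 5. Erasers stood at -0.04, 0.20, 0.17, 0.16 and 0.03 in 1C-MIM, against -0.03, 0.02, -0.09, -0.11 and -0.31 in Control. For both classes 1C-MIM 2, 3 and 4 were high, Control 5 was low, and 1C-MIM 1 and Control 2 were close. The difference of writers minus erasers within a library was -0.01 to 0.04 in 1C-MIM and -0.07 to 0.03 in Control, so the groups overlapped in it. Core subunits stood between -0.08 and 0.02 in 1C-MIM and between -0.03 and 0.05 in Control.

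The libraries that stood out were those in which long transcripts in general stood out. The slope of log2 CPM deviation per doubling of transcript length, over all genes, was -0.03, 0.12, 0.06, 0.09 and 0.01 in 1C-MIM 1 to 5, against -0.01, -0.01, -0.03, -0.05 and -0.14 in Control 1 to 5. 1C-MIM 2, 3 and 4 had the most positive slopes, and Control 5 the most negative. 1C-MIM 1 lay below Control 1 and Control 2, so the slopes of the groups overlapped. Most members are longer than the median gene tested, so their values and these slopes are not independent. With each library's length trend removed, writers stood at 0.02 to 0.07 in 1C-MIM and -0.10 to 0.04 in Control, and erasers at 0.00 to 0.07 in 1C-MIM and -0.10 to 0.03 in Control. The spread between libraries of a group was then smaller, and Control 2 was the Control library within the 1C-MIM range in both classes.

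**Figure D3:**
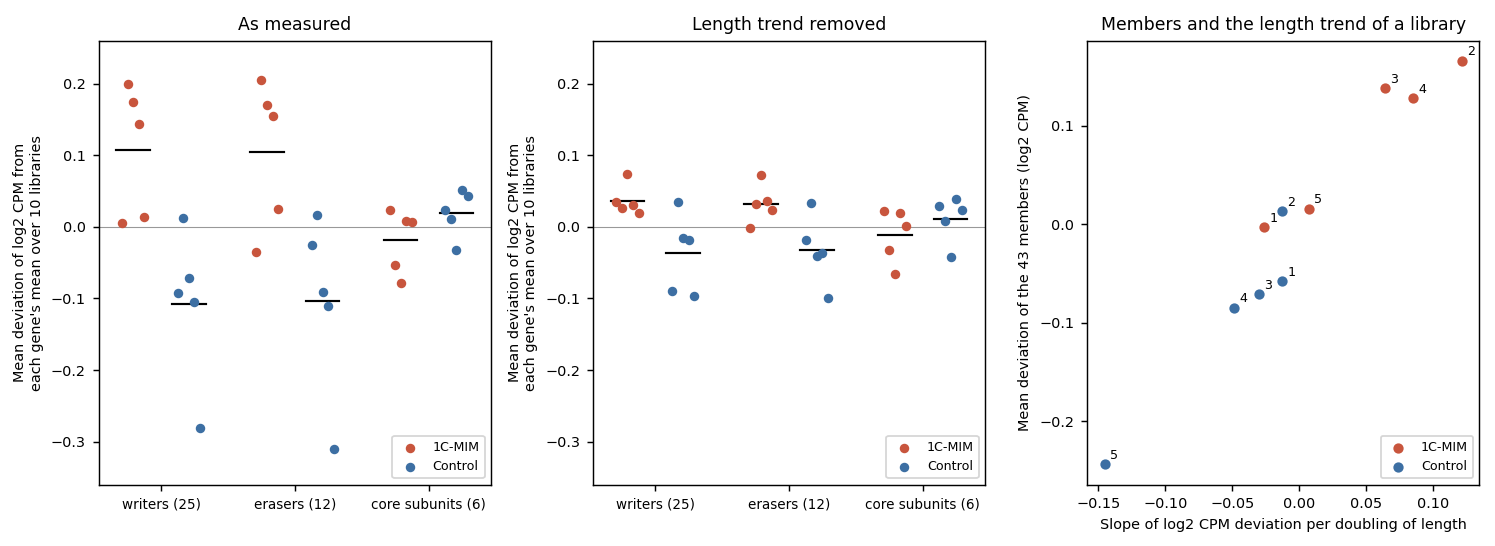
Mean deviation of log2 CPM from each gene's mean (y axes) for writers, erasers and core subunits in each 1C-MIM and Control library (points; black line, group mean), as measured and with the length trend removed, and, at right, the mean deviation of all 43 genes against each library's slope of deviation per doubling of transcript length (numbers, replicates). Writers and erasers shift together, and the 3 libraries with the most positive slopes, 1C-MIM 2, 3 and 4, have the 3 highest values while Control 5 has the lowest of both.

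Within the list the fold change followed length closely among writers and hardly among erasers. Across genes, which are not independent, Spearman's rho of log2 fold change with transcript length was 0.73 over the 25 writers, 0.16 over the 12 erasers, 0.75 over all 43 members and 0.44 over 13822 genes with a length and GC content. The members were longer than most genes, with a median of 4616 bases against 2820 bases over all genes tested; writers had a median of 4660 bases, erasers 5731.5 bases and core subunits 3102.5 bases. The lengths of the writers spanned 1605 to 19827 bases, and those of the erasers 3015 to 10969 bases. After removal of the trend rho was 0.20 over the members, 0.12 over the writers, -0.43 over the erasers, 0.49 over the 6 core subunits and 0.02 over all genes.

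The members were then set beside genes of like length. Among genes of 8000 bases and over, 33.4% were called higher (188 of 563), and of the 9 members in that range 5 were (Kmt2a, Kmt2b, Kmt2c, Kmt2d and Setd2), all writers. Between 4000 and 8000 bases 19.1% of all genes were higher and 6 of 19 members were, 2 of 8 writers and 4 of 10 erasers. Between 2000 and 4000 bases 7.59% of all genes were higher and 0 of 13 members, with Smyd4 higher and Smyd5 lower at an unadjusted p under 0.05 and 0 called by DESeq2. Under 2000 bases 2.12% of all genes were higher and 21.5% lower, and the 2 members there were Smyd2, called higher, and Dpy30, called lower. In the top range the members had a median length of 11270 bases, against 9623 bases for all genes there. With the length trend removed, 1 of 19 members between 4000 and 8000 bases was higher (5.26%), against 7.14% of all genes. At 8000 bases and over 1 of 9 members was then higher and 1 lower, against 9.95% of all genes higher and 5.86% lower.

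**Figure D4:**
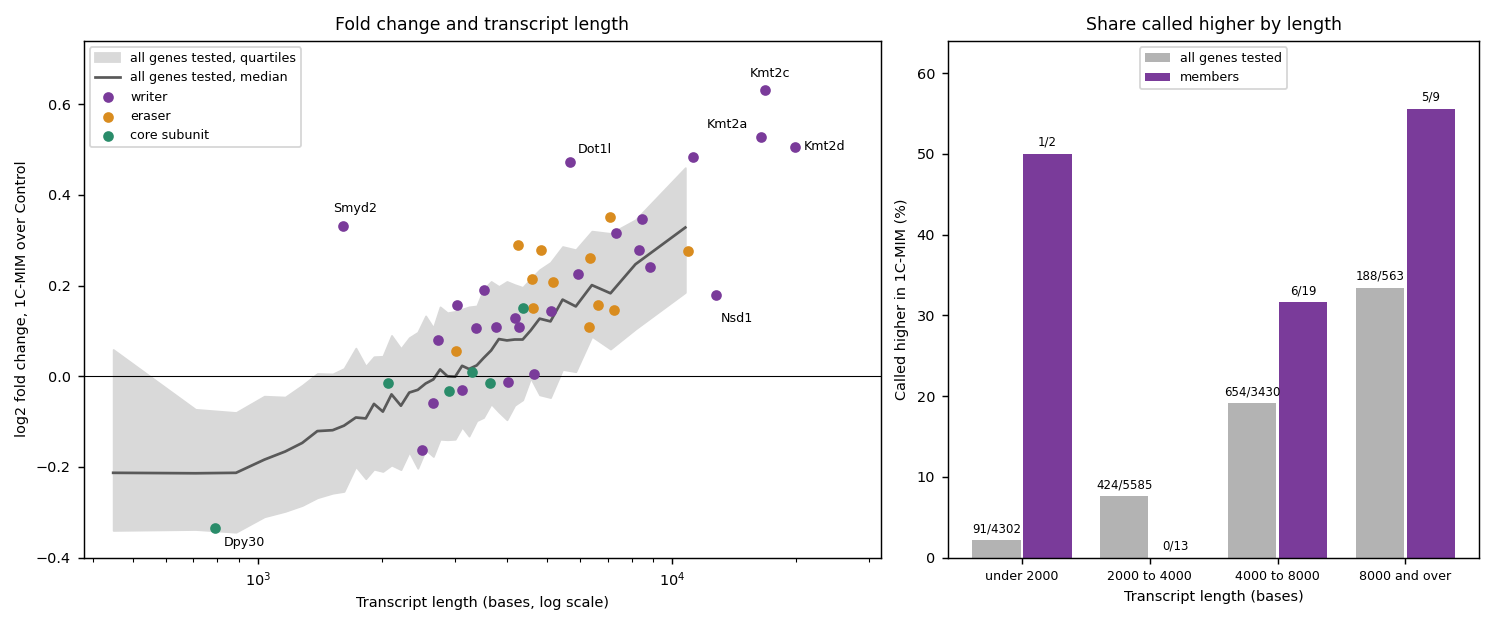
Left, log2 fold change of 1C-MIM over Control (y axis) against transcript length in bases (x axis, log scale) for the 43 genes by class, over the median (line) and quartiles (band) of all 13880 genes tested. Right, percent of genes called higher in 4 ranges of length for all genes and for the 43 members, with counts above the bars; Smyd2 lies far above the band, Dpy30 on its lower edge, and Nsd1, past the end of the band, below the other members of its length.

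Most calls changed when single libraries were left out. Smyd2 and Kdm3b remained called higher when any single library was left out, with edgeR adjusted p values of at most 0.0487 and 0.0416. Every other call was lost on leaving out at least 1 library. Kmt2a, Kmt2b, Kmt2c, Kmt2d, Setd2, Setd7, Dot1l, Kdm4c and Phf8 lost theirs without any 1 of 1C-MIM 2, 1C-MIM 4 and Control 4, and without 1C-MIM 3 as well except for Setd2. Without Control 5 all 9 but Setd2 and Setd7 were lost, and without Control 3 Kmt2a, Kmt2c, Setd2, Setd7, Kdm4c and Phf8. Kmt2b was also lost without 1C-MIM 5 or Control 1, Dot1l without Control 1, and Phf8 without 1C-MIM 1 or 1C-MIM 5. Kdm4b lost its call without 1C-MIM 3 or Control 4, and both Ash1l and Kdm3a gained one without 1C-MIM 1, 1C-MIM 5 or Control 1. Setd1a gained one without Control 2. Dpy30 lost its call without any of 1C-MIM 2, 3, 4 and 5 and Control 1, 4 and 5. Over the 10 such fits the number of members called higher ran from 2 without Control 4 to 13, and was 3 without 1C-MIM 2, 3 or 4, 6 without Control 3 and 5 without Control 5. Calls over all genes fell in the same fits, to 902 higher without Control 4, 932, 843 and 739 without 1C-MIM 2, 3 and 4, 1065 without Control 3 and 1001 without Control 5, against 1357 with all libraries. Over the 10 fits that each left out 1 library, the log2 fold change of Kmt2a ranged from 0.43 to 0.63, of Kmt2b from 0.28 to 0.42 and of Phf8 from 0.22 to 0.31, with the direction kept for these 3.

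Further genes of histone lysine methylation outside the 43 were taken from lists of writers, erasers and complex subunits. Their counts stand beside 9.78% of all genes tested called higher and 11.8% lower, or 6.97% and 9.33% with the length trend removed. Of 13 other writers, 4 were higher and 0 lower, with a median log2 fold change of 0.07. They were Kmt2e, a relative of the MLL genes (0.53; edgeR adjusted p = 0.0423), the H4K20 methyltransferase Kmt5b (0.20; 0.0477), the H3K36 writer Nsd3 (0.33; 0.0346) and Mecom, a zinc finger factor with a PR domain (0.56; 0.0206). With the length trend removed Mecom stayed higher (0.47; edgeR adjusted p = 0.0332) and Nsd2, a relative of Nsd1, was lower (-0.29; 0.0218). Of 9 other erasers tested (Kdm4d had too few reads), 1 was higher, the X-linked H3K27 demethylase Kdm6a (0.39; edgeR adjusted p = 0.0452). With the trend removed its call was lost.

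Of 17 further complex subunits, 2 were higher and 1 lower, against 9.78% of all genes higher and 11.8% lower. Hcfc1, a shared cofactor of SETD1 and MLL complexes, was at 0.33 (edgeR adjusted p = 0.0324), and Kansl1, a subunit of an acetyltransferase complex that shares Wdr5, at 0.36 (adjusted p = 0.0371). Rbbp4, a histone chaperone of Polycomb repressive complex 2 and several deacetylase complexes, was at -0.21 (edgeR adjusted p = 0.025). With the length trend removed neither of the 2 was higher, while Rbbp4 (-0.30; edgeR adjusted p = 0.00582) and Wdr82, a subunit of the SETD1 complexes, were lower (-0.23; adjusted p = 0.0349).

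Markers of the other cell types of muscle differed between the groups as well. Macrophage markers summed to 97.7 to 150.9 CPM in 1C-MIM and 162 to 308 CPM in Control (6 of 8 lower), lymphocyte markers to 7.004 to 9.27 CPM in 1C-MIM and 11.4 to 17.8 CPM in Control (3 of 5 tested lower), and fibroblast and progenitor markers to 591 to 921 CPM in 1C-MIM and 839 to 1202 CPM in Control (4 of 6 lower). The macrophage markers not called were Mrc1 (log2 fold change -0.22) and Cd163 (0.19). The fibroblast and progenitor markers not called were Pdgfra (0.03) and Dcn (0.07). Endothelial markers summed to 205 to 236 CPM in 1C-MIM and 139.5 to 199 CPM in Control (4 of 5 higher), and 3 of 7 muscle fibre markers were higher. Satellite cell markers summed to 12.7 to 16.1 CPM in 1C-MIM and 14.7 to 17.3 CPM in Control (1 of 4 lower), and neural markers to 34.5 to 43.5 CPM in 1C-MIM and 30.8 to 37.2 CPM in Control, with none of the 3 tested called. With the length trend removed, 6 macrophage, 3 lymphocyte, 3 fibroblast and progenitor and 1 satellite cell markers were lower. Higher in that fit were 2 endothelial, 3 muscle fibre and 1 neural markers, with Tnnt3 called among the fibre markers in place of Myh4. Of all genes tested, 9.78% were higher and 11.8% lower as measured, and 6.97% and 9.33% with the trend removed. The part of these marker shifts in the values of the histone methylation genes was not tested.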

How the data were processed

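RNA-seq of quadriceps from 10 mice was analysed, 5 of the 1C-MIM and 5 of the Control group, as the titles give them. The deposited tables list 33984 transcript ids with whole-number counts that the authors did not normalize, and FPKM values (the authors scaled counts by transcript length and library total). The FPKM served to recover transcript lengths. Per the submitters' processing notes, tools included Trim Galore 0.6.7, Salmon 1.5.2, STAR, StringTie 2.2.1, featureCounts and DESeq2 1.28.0, with build GRCm39; the sources used here give no roles for them and do not say whether counting used strand. A read can count for several isoforms, so 1 id per symbol was kept.

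Counts were filtered with filterByExpr, scaled by TMM and tested with edgeR 4.0.16 (R 4.3.3, quasi-likelihood, robust). A length trend per library was fitted to log2 CPM (prior count 2) as a natural spline with 3 inner knots. It was removed as an offset centred to leave library levels alone. Alternatives were DESeq2 1.42.0 and its size factors, library totals, other filters, blocks, summed ids, a threshold of 0.1, length with GC content, and leaving out libraries; the block with length was added after seeing the data. SE is the log2 fold change over the root of F, and 95% intervals use the same F. RPKM is CPM over length. Exon overlaps come from GENCODE M21 on GRCm38, and promoters from RefSeq. No pair of libraries agreed within sampling noise. Replicate numbers were not used as pairs in the main test. Depth was 28521249 to 31771297 counts, and counting error is part of the spread tested. All 43 genes are named; per-library values are given for the 14 with the smallest p, Smyd1 and the 3 paralog pairs, and of the other lists called genes are named. The genes and lists were chosen with earlier results of these data known.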

Additional observations from a re-analysis of the deposited data

How the results depend on the processing

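The median log2 fold change of core subunits was -0.088 with library totals as scaling, where 1 member was called higher and 2 lower (writers 1 higher and 1 lower, erasers 0 higher), and all genes numbered 606 higher and 2895 lower. Without a count filter 5 writers were higher. Removing the length trend left 3 members higher (2 writers, 1 eraser), 1 writer and 0 core subunits lower, with medians of 0.054 for writers and 0.066 for erasers; removing length and GC content together left 4 higher (2 writers, 2 erasers), 1 writer and 0 core subunits lower, with medians of 0.07 and 0.094. Nsd1 was at -0.15 and -0.17 in these fits (edgeR adjusted p = 0.0354 and 0.0181). At an adjusted p under 0.1, 2114 genes were higher.

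Leaving out each library in turn gave 2 to 13 members higher and 0 to 1 lower, 1 to 9 writers and 1 to 5 erasers higher, 0 to 1 core subunits lower, and 739 to 1558 genes higher and 941 to 1885 lower. Without Control 1 and Control 5 together, 4 members were higher (3 writers, 1 eraser) and 0 lower (0 core subunits), with 832 genes higher and 976 lower. Among the 3 against 3 animals numbered in the 200s, 0 members were called (0 writers, 0 erasers, 0 core subunits) and 31 genes were higher and 64 lower. Among the 2 against 2 numbered in the 300s, 1 member was higher (1 writer, Kmt2d; 0 erasers) and 0 lower (0 core subunits), with 127 genes higher and 269 lower. Smyd2 lost its call in these subsets alone (edgeR adjusted p = 0.137 and 0.234); Kdm3b did so too (0.211 and 0.0719), and with library totals (0.0662).

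Deviations of same-numbered libraries had correlations of -0.08, 0.12, 0.06, 0.12 and 0.39 for numbers 1 to 5, and 2 of 5 correlated best with their own number. The main test did not use the numbers as pairs. The replicate block gave 17 members higher, 1 lower, and 1930 genes higher, against 12, 1 and 1357 in the main test. The replicate block with the length trend removed, chosen after seeing the data, gave 5 members higher (4 writers, 1 eraser), 1 writer and 0 core subunits lower, medians of 0.056 for writers and 0.061 for erasers, and Nsd1 at -0.15 (adjusted p = 0.0288). DESeq2 called 15 members and 1785 genes higher. The causes of these shifts were not tested. Reads limited the rarest members, such as Suv39h2 with 45 to 81 per library.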
